A study of Homo sapiens with 16 samples.

Results

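CAL51 is an established human breast cancer cell line of the triple-negative kind, and 142 of its genes had a brief dip in RNA after exposure to the compound CC-671. Each of these genes stood at less than 50% of its vehicle level after 6 h at both doses and close to the vehicle level after 24 h. They were chosen on CPM, the usual depth-scaled count, which sets the read pairs of a gene against all pairs counted at genes in the library. The effect of a dose was log2 of its mean CPM plus 0.1 over the vehicle mean plus 0.1 at the same time. A gene belonged to the set when its vehicle mean at 6 h was at least 10 CPM, both 6 h effects were -1 or lower, and both 24 h effects lay between -0.25 and 0.25. The 142 genes came from 426 that met the 6 h part, from 10011 that reached the vehicle minimum and from 55510 gene symbols in the files. The comparisons with vehicle thus chose the genes and are given below as a description, with no test. Both doses were set against the same vehicle libraries.

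The cells, grown in DMEM with fetal bovine serum, were at passage 10, and the labels describe a near-diploid karyotype with 28% tetraploidy. Cultures received DMSO for 6 h (2 libraries) or 24 h (2 libraries), or CC-671 at 3 µM or 10 µM for 6 h or 24 h (3 libraries in each of these 4 groups). The labels name no genetic change made to the cells, all 16 libraries come from this 1 line, and libraries of a group are biological replicates by the labels. CC-671 is known as a dual inhibitor of TTK, a checkpoint kinase of the mitotic spindle, and of CLK2, which phosphorylates the SR proteins that guide splicing. The level of an RNA follows from its synthesis, its processing and its decay. When splicing is disturbed, transcripts can keep introns or skip exons, and many such products are retained in the nucleus or degraded by nonsense-mediated decay. Bulk RNA cannot tell fewer cells with a transcript from less of it per cell.

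Counting at genes kept 104609173 to 123789361 read pairs in a library. Libraries of a group correlated at 0.998 to 0.999 over genes, on log2 CPM, and differed by more than counting noise. Of the defining breast receptors, ESR1 and PGR had at most 0.05 CPM in every group and ERBB2 had 82.1 to 186 CPM over the libraries. Of 9 blood cell markers PTPRC had 5.30 to 12.7 CPM over the libraries and CD14 0.12 to 2.85 CPM. HBB, NKG7 and MS4A1 were at 0, and the whole list summed to 6.00 to 12.9 CPM. Of 7 fibroblast markers COL3A1 was present at 189 to 254 CPM, PDGFRB at 32.5 to 69.9 CPM and COL1A2 at 11.9 to 21.2 CPM. COL1A1 had 8.43 to 14.7 CPM and LUM 1.77 to 2.59 CPM. DCN and THY1 were near 0, and the list summed to 267 to 342 CPM. The part of these markers in the results was not tested. Replicate 2 stood lowest among the treated libraries at 6 h: of the 142 genes, 103 had their lowest 3 µM value and 119 their lowest 10 µM value in it. Without replicate 2 of 3 µM the rule gave 132 genes, and without replicate 2 of 10 µM it gave 135.

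Promoter sequence is shown for 5 of the genes because they span the pattern: PRKCI had the lowest 6 h effects, HIF1AN and COG6 are among those with a clear step between the doses, and RFC1 and CDC45 both act at the replication fork. Each line gives the 150 bases before the annotated start, from RefSeq on GRCh38.p14, on the strand of the gene, with matches to any of 12 motifs in capitals.
PRKCI, chr3:170222274-170222423, plus strand: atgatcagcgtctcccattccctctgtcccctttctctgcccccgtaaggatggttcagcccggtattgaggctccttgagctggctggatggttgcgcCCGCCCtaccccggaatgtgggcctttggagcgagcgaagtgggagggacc
HIF1AN, chr10:100535793-100535942, plus strand: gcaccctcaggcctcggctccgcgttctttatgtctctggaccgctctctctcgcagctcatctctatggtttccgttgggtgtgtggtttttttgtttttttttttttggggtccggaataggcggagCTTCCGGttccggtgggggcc
COG6, chr13:39655477-39655626, plus strand: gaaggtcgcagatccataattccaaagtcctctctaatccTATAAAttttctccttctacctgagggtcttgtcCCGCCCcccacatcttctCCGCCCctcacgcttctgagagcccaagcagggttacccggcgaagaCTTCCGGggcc
RFC1, chr4:39366363-39366512, minus strand: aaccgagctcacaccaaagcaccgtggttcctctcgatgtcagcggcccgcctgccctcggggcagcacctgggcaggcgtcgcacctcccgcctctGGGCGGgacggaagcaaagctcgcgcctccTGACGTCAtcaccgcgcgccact
CDC45, chr22:19479770-19479919, plus strand: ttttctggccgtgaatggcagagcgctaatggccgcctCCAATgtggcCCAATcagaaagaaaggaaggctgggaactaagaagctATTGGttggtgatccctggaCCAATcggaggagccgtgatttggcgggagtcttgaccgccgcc

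The motifs were the E2F sites TTTCCCGC and TTTGGCGC, the CCAAT box CCAAT, the NRF1 palindrome, the ETS site CCGGAAG, the YY1 site AAGATGG, the SP site GGGCGG, the TATA box TATAAA, the CRE TGACGTCA, the E-box CACGTG, the CHR TTTGAA and the ZBTB33 palindrome, each searched on both strands and by exact letters. PRKCI held 1 SP match, 51 bases before the start. HIF1AN held 1 ETS match at 21 bases. COG6 held a TATA match at 110 bases, SP matches at 76 and 58 bases and an ETS match at 11 bases. RFC1 held an SP match at 53 bases and a CRE match at 23 bases, and CDC45 held 4 CCAAT matches at 112, 102, 64 and 44 bases. No 1 motif was common to these 5 windows. Of all 27305 promoters in the table, 36.7% held the SP letters in the same 150 bases, 24.4% CCAAT, 7.18% the ETS letters, 7.05% TATAAA and 1.51% the CRE. A match is only a run of letters in this window. Only 108 of the 142 genes, 76.1%, were found in the promoter table, so a comparison of motifs or base composition between the whole set and other genes is void and none is given.

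At 6 h the 142 genes together stood far below vehicle, and at 24 h close to it. Their summed level was 8970 ± 102 CPM in vehicle (SD, n = 2), 3747 ± 140 CPM at 3 µM (SD, n = 3) and 3387 ± 229 CPM at 10 µM (SD, n = 3). At 24 h it was 9199 ± 38.1 CPM in vehicle (n = 2), 8913 ± 4.86 CPM at 3 µM and 9015 ± 26.5 CPM at 10 µM (n = 3 each). The lowest single library was 10 µM replicate 2 at 6 h, with 3125 CPM. The typical gene was at 43.7% of vehicle at 3 µM and 37.4% at 10 µM after 6 h, and at 94.8% and 96.9% after 24 h, as medians over the 142. Within treated cells the 24 h level was 2.32 times the 6 h level at 3 µM (median, range 1.69 to 5.24) and 2.68 times at 10 µM (range 1.69 to 5.91).

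**Figure D1:**
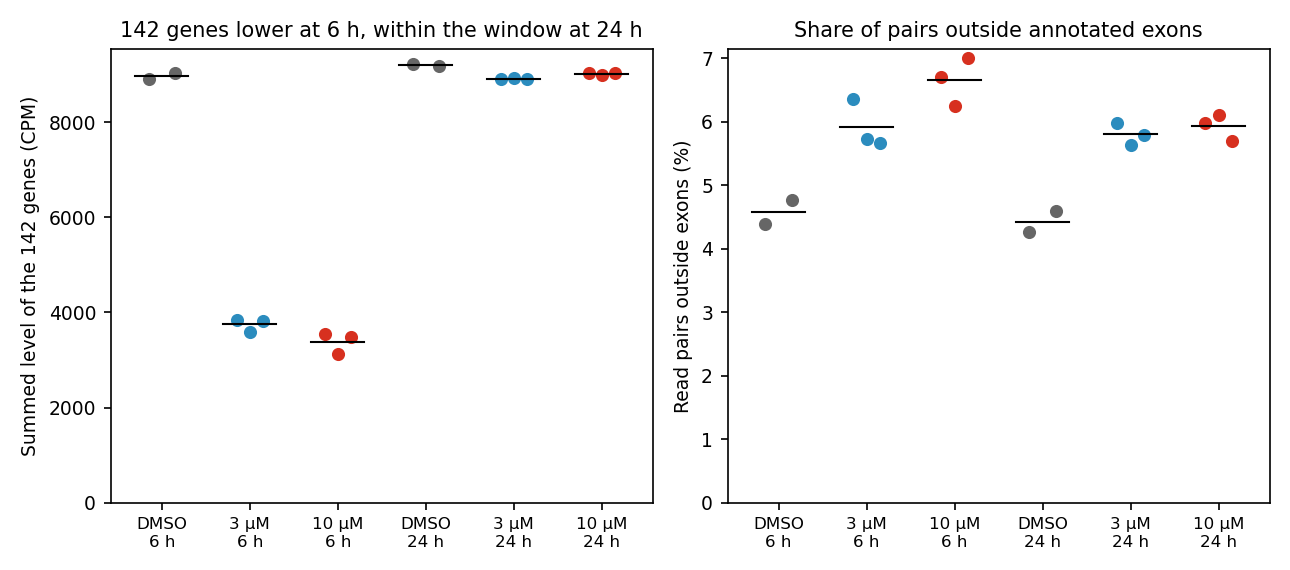
Left, the summed CPM of the 142 genes in each of the 16 libraries, and right, the read pairs outside annotated exons as a percentage of assigned pairs; points are libraries and bars group means. The treated libraries at 6 h sit between 3125 and 3844 CPM and those of the other groups between 8898 and 9226 CPM, while the share outside exons is above that of vehicle at both times.

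Every gene of the set had each treated library below each vehicle library at 6 h, at both doses. The rule largely fixes this, and the same held for 46.7% of the 10011 genes at 3 µM and 48.6% at 10 µM. The 6 h effects ranged from -2.39 to -1.0 at 3 µM (median -1.19) and from -2.51 to -1.0 at 10 µM (median -1.41). Both were -1.5 or lower in 19 genes, and both were -2 or lower in 2, PRKCI and SFR1. The 24 h effects had medians of -0.08 at 3 µM and -0.05 at 10 µM. Of the 142 genes 85 were below 0 at both doses at 24 h, 38 were above 0 at both and 47 were within 0.1 of 0 at both. The treated and vehicle libraries overlapped at 24 h in 23 genes at 3 µM and 25 genes at 10 µM. They did not overlap in the other 119 and 117, beside 87.5% and 89.9% of the 10011 genes, in either direction. All tested genes had median 24 h effects of 0.09 and 0.10 on plain CPM, and scaling by TMM moved them to 0.00 and 0.01. With TMM the medians of the set were -0.18 and -0.16, and 39 and 40 of its genes lay outside the window.

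The 6 h part of the rule was met by 4.26% of the genes at the vehicle minimum. Of those 426 genes 142, or 33.3%, were within the window at 24 h. Of the rest, 223 (52.3%) were below -0.25 at both doses without both being -1 or lower, and 12 (2.82%) were still at -1 or lower at both. A further 15 (3.52%) were above 0.25 at both. The last 34 (7.98%) had 1 dose inside the window and the other outside, or the doses on opposite sides of it. The opposite pattern, higher at 6 h and within the window at 24 h by the same limits, was met by 2 genes. Just inside the 6 h limit were TACC2, with effects of -1.0 at 3 µM and -1.07 at 10 µM, and RBMS1P1, with -1.0 and -1.37. Just outside were FAM13B, with -1.0 and -1.06, and GCC2, with -1.0 and -1.05, whose 3 µM effects were above -1 before rounding. At the 24 h limit RMND5B (-0.25 at both doses) and ENOX2 (-0.18 and -0.25) lay inside, and ORAOV1 (0.15 and 0.25) and ATP7A (-0.25 and -0.21) outside. At the vehicle minimum the lowest members were MKS1 and RALGAPA1P, both with 11.2 CPM, and the genes below it were TTC12 with 9.90 CPM and SNAP91 with 9.03 CPM. The limits cut a continuous cloud, so genes on either side of them had nearly the same values.

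**Figure D2:**
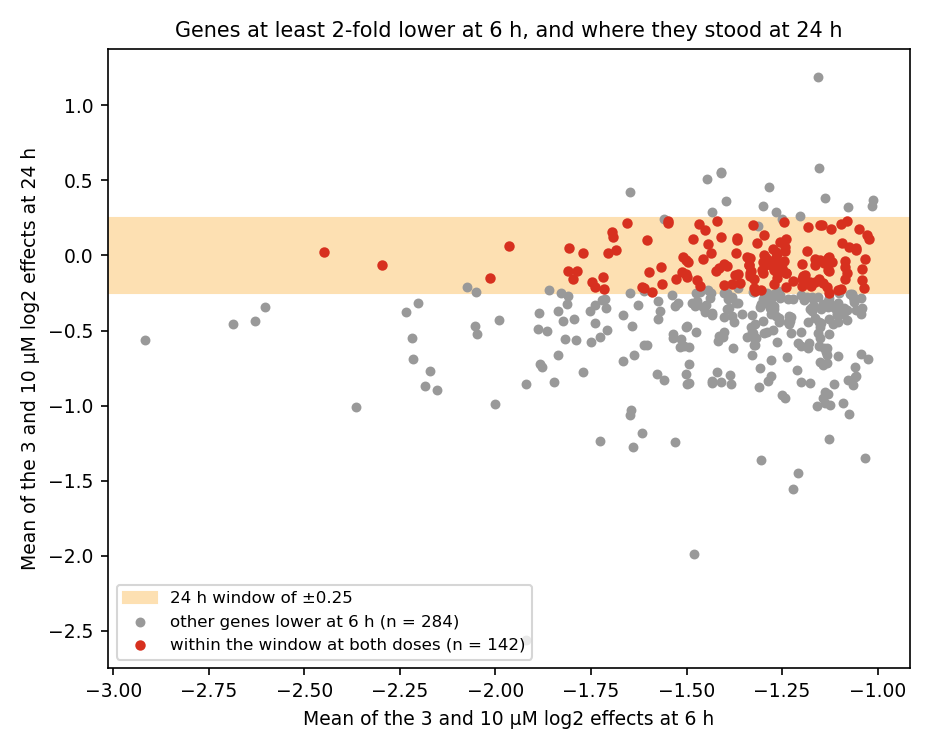
Each point is 1 of the 426 genes with both 6 h effects at -1 or lower; the x axis is the mean of the 3 and 10 µM log2 effects at 6 h and the y axis the same at 24 h. The 142 genes of the set are red and the other 284 grey, most of them below the band of ±0.25.

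Among the signalling genes PRKCI, the atypical protein kinase C iota of cell polarity, had the lowest effects of the whole set. Its vehicle libraries had 151 and 152 CPM at 6 h, the 3 µM libraries 28.6, 28.1 and 29.7 CPM and the 10 µM libraries 28.9, 24.1 and 26.5 CPM. At 24 h it had 150.4 and 152 CPM in vehicle, 148, 152 and 154 CPM at 3 µM and 158, 155 and 157 CPM at 10 µM. Treated and vehicle libraries were thus far apart at 6 h, and at 24 h the 3 µM libraries overlapped vehicle and the 10 µM libraries lay just above it. The effects were -2.39 (3 µM) and -2.51 (10 µM) at 6 h and 0.00 (3 µM) and 0.05 (10 µM) at 24 h. HIF1AN, the hydroxylase that restrains hypoxia-inducible factors, had 77.0 and 78.0 CPM in vehicle, 30.6, 28.5 and 30.5 CPM at 3 µM and 18.7, 16.6 and 21.1 CPM at 10 µM at 6 h. Its 24 h libraries held 82.4 and 81.2 CPM in vehicle, 81.5, 81.6 and 82.3 CPM at 3 µM and 83.0, 85.7 and 81.3 CPM at 10 µM. The 10 µM libraries of HIF1AN were below all 3 µM libraries at 6 h, and both doses overlapped vehicle at 24 h. ACVR1, a type I receptor for bone morphogenetic proteins, had 12.9 and 13.0 CPM in vehicle, 4.03, 4.18 and 4.43 CPM at 3 µM and 3.66, 3.62 and 3.85 CPM at 10 µM at 6 h. At 24 h its libraries had 12.9 and 13.7 CPM in vehicle, 13.2, 13.3 and 13.3 CPM at 3 µM and 13.9, 14.4 and 14.1 CPM at 10 µM, with 10 µM above both vehicle libraries. Placed by role after the set was known, 17 genes were in signalling, with median effects of -1.23 and -1.41 at 6 h and -0.07 at both doses at 24 h.

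Replication and repair genes included that with the second lowest effects. SFR1, which with SWI5 assists homologous recombination, had 11.8 and 11.1 CPM in vehicle, 2.62, 2.25 and 2.46 CPM at 3 µM and 2.15, 2.07 and 1.98 CPM at 10 µM at 6 h. The level at 24 h was 11.3 and 11.3 CPM in vehicle, 10.7, 10.4 and 10.6 CPM at 3 µM and 11.2, 11.1 and 10.9 CPM at 10 µM, all treated libraries just below vehicle. RFC1, the large subunit of the clamp loader, had 163 and 159 CPM in vehicle, 50.4, 49.1 and 53.6 CPM at 3 µM and 51.4, 39.5 and 43.3 CPM at 10 µM at 6 h. Its 24 h values were 174 and 170.1 CPM in vehicle, 153, 153 and 152 CPM at 3 µM and 151, 149.8 and 154 CPM at 10 µM, so every treated library was still below vehicle, with effects of -0.18 (3 µM) and -0.18 (10 µM). CDC45, part of the replicative helicase, had 53.5 and 52.5 CPM in vehicle, 21.9, 18.6 and 19.1 CPM at 3 µM and 18.4, 15.8 and 18.4 CPM at 10 µM at 6 h. Its levels at 24 h were 48.2 and 48.8 CPM in vehicle, 46.0, 46.3 and 45.9 CPM at 3 µM and 43.3, 43.7 and 42.3 CPM at 10 µM, all treated libraries below both vehicle libraries. RAD18, a ubiquitin ligase of lesion bypass, had effects of -1.44 (3 µM) and -1.21 (10 µM) at 6 h and -0.20 (3 µM) and -0.11 (10 µM) at 24 h, and FANCC, of the Fanconi anaemia core complex, -1.05 (3 µM) and -1.43 (10 µM) at 6 h and -0.09 (3 µM) and -0.15 (10 µM) at 24 h. Of 51 replication genes listed and at the vehicle minimum, 5 (9.80%) met the 6 h rule and 2 of these are in the set. Of 54 DNA repair genes 9 (16.7%) met it and 2 are in the set. Of all genes at the vehicle minimum 4.26% met it. The list medians at 3 and 10 µM after 6 h were -0.20 and -0.34 for replication and -0.46 and -0.46 for repair, beside -0.03 and -0.06 over all 10011 genes. Most listed genes of both groups thus lay well short of a 2-fold difference. By role, 9 genes of the set act in replication, repair or at the centromere, among them MUTYH, SMARCAL1 and TRAIP, with median 6 h effects of -1.41 (3 µM) and -1.57 (10 µM).

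**Figure D3:**
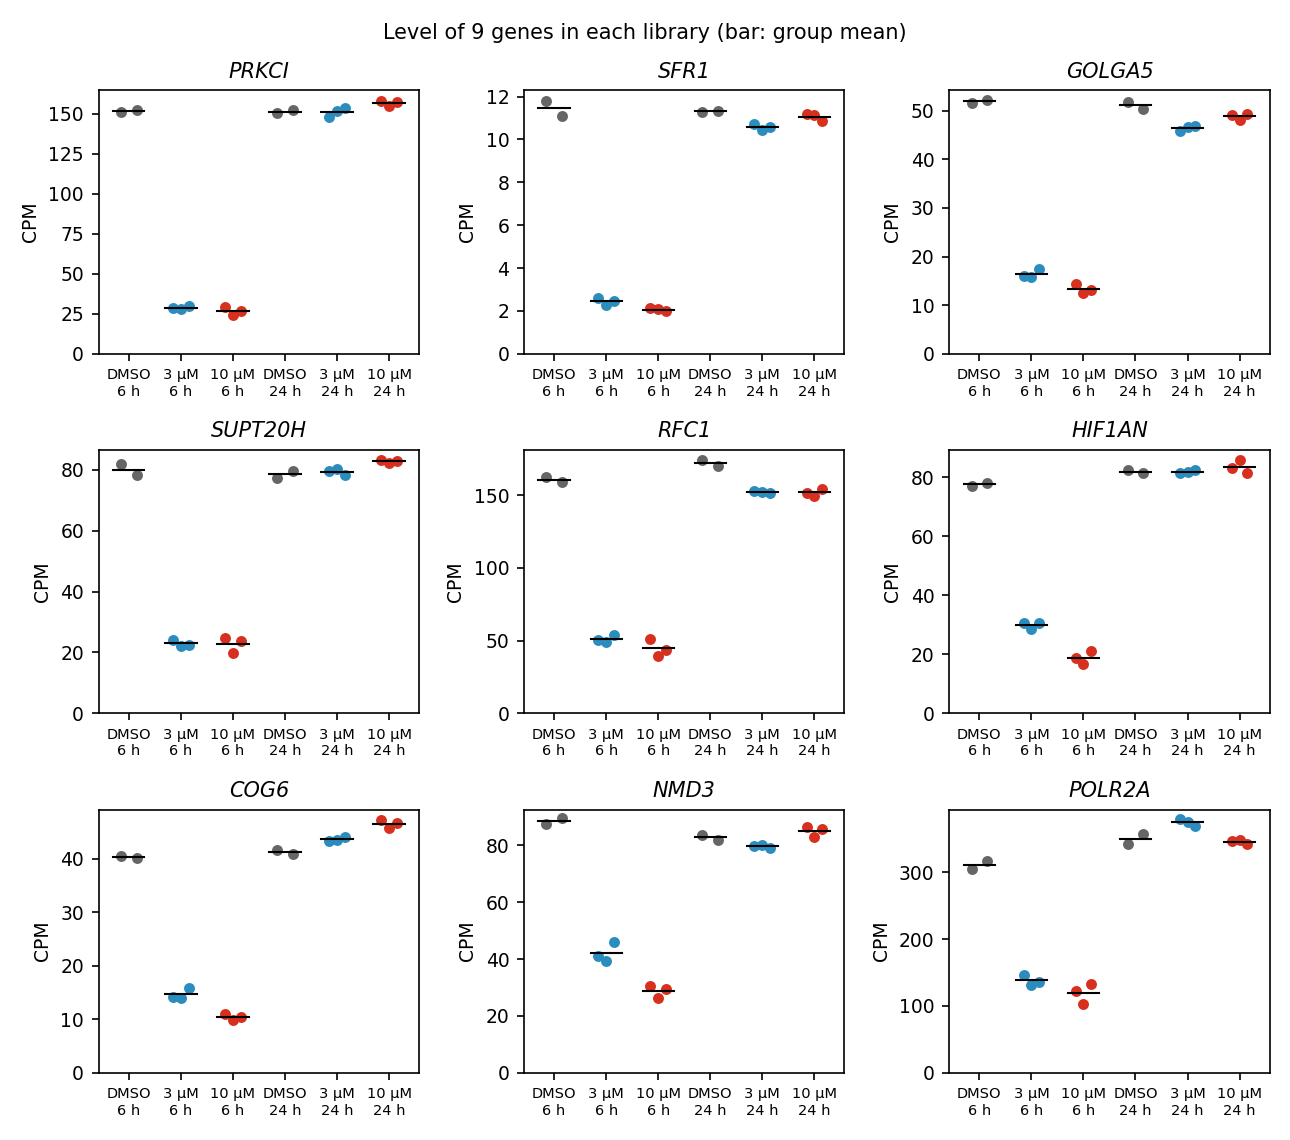
CPM of 9 genes in each library, on axes that start at 0; points are libraries, coloured by dose, and bars are group means. In all 9 panels the 6 treated libraries at 6 h lie below every other library, and PRKCI has 24.1 to 29.7 CPM in those 6 and 148 to 158 CPM in the treated libraries at 24 h.

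Genes of transcription and RNA processing were also present. POLR2A, the largest subunit of RNA polymerase II, had 304 and 317 CPM in vehicle, 146, 131 and 136 CPM at 3 µM and 122, 103 and 133 CPM at 10 µM at 6 h. Its 24 h libraries held 342 and 357 CPM in vehicle, 380.0, 375 and 369 CPM at 3 µM and 347, 348 and 343 CPM at 10 µM. The 3 µM libraries were then above both vehicle libraries, and the 10 µM libraries lay between them. SUPT20H, a subunit of the SAGA coactivator, had 82.0 and 78.3 CPM in vehicle, 24.3, 22.1 and 22.4 CPM at 3 µM and 24.6, 19.9 and 23.7 CPM at 10 µM at 6 h. Its 24 h values were 77.4 and 79.8 CPM in vehicle, 79.8, 80.2 and 78.3 CPM at 3 µM and 83.4, 82.4 and 83.1 CPM at 10 µM, so the 3 µM libraries overlapped vehicle and the 10 µM libraries were above it. MNAT1, the assembly factor of the CDK-activating kinase, had effects of -1.24 (3 µM) and -1.43 (10 µM) at 6 h and -0.13 (3 µM) and -0.11 (10 µM) at 24 h. RBM5, a regulator of exon choice, had effects of -1.47 (3 µM) and -1.5 (10 µM) at 6 h and 0.10 (3 µM) and 0.11 (10 µM) at 24 h. Its relative RBM10 had -1.41 (3 µM) and -1.49 (10 µM) at 6 h and 0.19 (3 µM) and 0.16 (10 µM) at 24 h, so the 24 h means of both were above vehicle. TSEN15, a subunit of the tRNA splicing endonuclease, had 51.9 and 50.5 CPM in vehicle, 16.9, 15.8 and 17.2 CPM at 3 µM and 13.8, 14.3 and 15.4 CPM at 10 µM at 6 h. The level at 24 h was 48.5 and 47.5 CPM in vehicle, 42.2, 45.5 and 44.2 CPM at 3 µM and 43.2, 43.0 and 42.7 CPM at 10 µM, and all treated libraries were below vehicle. NSUN2, a tRNA methyltransferase, had effects of -1.41 (3 µM) and -1.42 (10 µM) at 6 h and -0.08 (3 µM) and -0.08 (10 µM) at 24 h, and ELP2, of the Elongator complex, -1.03 (3 µM) and -1.03 (10 µM) at 6 h and 0.11 (3 µM) and 0.16 (10 µM) at 24 h. On the lists, 6 of 63 transcription genes (9.52%) met the 6 h rule and 2 are in the set. Of 65 splicing and RNA processing genes 3 (4.62%) met it and 2 are in the set. Of 59 tRNA and RNA polymerase III genes 6 (10.2%) met it and 2 are in the set. The share on the splicing and RNA processing list was near the 4.26% of all genes at the vehicle minimum. That list is partial and also holds genes of RNA end processing and decay, so the share is not one of splicing genes alone. By role, 7 genes of the set act in transcription or chromatin and 11 in splicing, RNA processing or on tRNA. The latter had median effects of 0.08 (3 µM) and 0.11 (10 µM) at 24 h.

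Ribosome biogenesis, the list with the most genes at the vehicle minimum, gave the most listed members, 4 of the 14 that met the 6 h rule among 74. The 14 are 18.9% of that list, beside 4.26% of all genes at the vehicle minimum. The shares were about as high for transport and pores, with 17.4%, and DNA repair, with 16.7%. NMD3, the export adaptor of the large subunit, had 87.4 and 89.5 CPM in vehicle, 41.1, 39.2 and 46.1 CPM at 3 µM and 30.5, 26.5 and 29.5 CPM at 10 µM at 6 h. At 24 h it had 83.8 and 81.9 CPM in vehicle, 79.7, 80.3 and 79.1 CPM at 3 µM and 86.5, 83.2 and 85.7 CPM at 10 µM, with 3 µM below vehicle and 10 µM overlapping it. The helicase DDX52 had effects of -1.18 (3 µM) and -1.48 (10 µM) at 6 h and -0.17 (3 µM) and -0.11 (10 µM) at 24 h. The RNA polymerase I subunit POLR1E had -1.12 (3 µM) and -1.41 (10 µM) at 6 h and 0.00 (3 µM) and 0.02 (10 µM) at 24 h, and the rRNA methyltransferase DIMT1 -1.07 (3 µM) and -1.21 (10 µM) at 6 h and -0.08 (3 µM) and -0.02 (10 µM) at 24 h. Of the other 10, UTP6 was lower still at 6 h, with -2.55 (3 µM) and -2.65 (10 µM), and had -0.37 (3 µM) and -0.32 (10 µM) at 24 h, outside the window. UTP20, with -2.02 (3 µM) and -2.08 (10 µM) at 6 h and -0.51 (3 µM) and -0.54 (10 µM) at 24 h, and NOL8, with -1.65 (3 µM) and -1.46 (10 µM) at 6 h and -0.85 (3 µM) and -0.81 (10 µM) at 24 h, were further from vehicle at 24 h. The list median was -0.20 and -0.29 at 6 h and -0.07 and -0.02 at 24 h.

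Membrane traffic and organelle genes made up another group. GOLGA5, a golgin that tethers vesicles, had 51.7 and 52.2 CPM in vehicle, 15.9, 15.7 and 17.4 CPM at 3 µM and 14.3, 12.5 and 13.1 CPM at 10 µM at 6 h. Its 24 h values were 51.8 and 50.4 CPM in vehicle, 45.9, 46.7 and 46.9 CPM at 3 µM and 49.2, 48.1 and 49.4 CPM at 10 µM, all treated libraries below vehicle. COG6, of the conserved oligomeric Golgi tether, had 40.6 and 40.1 CPM in vehicle, 14.2, 14.1 and 15.8 CPM at 3 µM and 11.0, 9.95 and 10.5 CPM at 10 µM at 6 h. Its 24 h libraries held 41.7 and 40.9 CPM in vehicle, 43.3, 43.6 and 44.1 CPM at 3 µM and 47.3, 45.7 and 46.6 CPM at 10 µM, every treated library above vehicle. REPS1, an endocytic adaptor, had effects of -1.51 (3 µM) and -1.80 (10 µM) at 6 h and 0.20 (3 µM) and 0.24 (10 µM) at 24 h, near the upper edge of the window. Placed by role after the set was known, 14 genes were in Golgi, vesicle and membrane traffic, among them GOLGA1, STX12, EXOC1, EXOC5, COPA, ARFGAP2, TRAPPC11 and AP4B1. Their median effects were -1.19 and -1.42 at 6 h and -0.04 and -0.02 at 24 h. In the endoplasmic reticulum, TMX2, a thioredoxin-like membrane protein, had 81.3 and 86.2 CPM in vehicle, 25.7, 23.3 and 26.7 CPM at 3 µM and 24.9, 20.8 and 22.9 CPM at 10 µM at 6 h. The level at 24 h was 79.5 and 76.9 CPM in vehicle, 68.9, 70.2 and 69.2 CPM at 3 µM and 70.8, 70.3 and 70.5 CPM at 10 µM and stayed below vehicle in every treated library. EMC2, a subunit of the membrane protein insertase, had effects of -1.68 (3 µM) and -1.75 (10 µM) at 6 h and -0.21 (3 µM) and -0.23 (10 µM) at 24 h. The nuclear pore protein NUP54 had -1.07 (3 µM) and -1.26 (10 µM) at 6 h and -0.07 (3 µM) and -0.05 (10 µM) at 24 h. NUP88, on the cytoplasmic face of the pore, had -1.06 (3 µM) and -1.48 (10 µM) at 6 h and 0.01 (3 µM) and -0.06 (10 µM) at 24 h. Of 46 listed transport and pore genes 8 (17.4%) met the 6 h rule. Of 18 listed peroxisome genes 2 (11.1%) met it, beside 4.26% of all genes at the vehicle minimum. TARS2, the mitochondrial threonyl-tRNA synthetase, had -1.53 (3 µM) and -1.70 (10 µM) at 6 h and -0.23 (3 µM) and -0.19 (10 µM) at 24 h. It is not on the list of mitochondrial gene expression, of whose 72 genes 4 (5.56%) met the 6 h rule and none is in the set. By role, 12 mitochondrial or metabolic genes were in the set, among them CLPX, ME2 and SIRT5, with medians of -1.26 (3 µM) and -1.51 (10 µM) at 6 h and -0.04 at both doses at 24 h, and 7 genes of the ubiquitin system, with medians of -0.08 (3 µM) and -0.09 (10 µM) at 24 h. In all, 42 of the 142 genes were placed in no role.

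At the centrosome and cilium, OFD1 had effects of -1.81 (3 µM) and -1.58 (10 µM) at 6 h and 0.08 (3 µM) and 0.23 (10 µM) at 24 h, and CDC16, a subunit of the anaphase-promoting complex, -1.40 (3 µM) and -1.36 (10 µM) at 6 h and -0.20 (3 µM) and -0.19 (10 µM) at 24 h. By role 12 genes of the set belong to the centrosome, cilium or cytoskeleton, among them CLUAP1, MKS1, IQCB1, CETN3 and TUBGCP5. CDC16 was the only member among 41 listed mitotic genes. Of those 41, 4 (9.76%) met the 6 h rule, beside 4.26% of all genes at the vehicle minimum. The other 3 were further from vehicle at 24 h: KIF4A had -0.56 (3 µM) and -0.75 (10 µM), HMMR had -0.42 (3 µM) and -0.46 (10 µM) and ECT2 had -0.41 (3 µM) and -0.47 (10 µM). By listed symbol, 5 cohesion and kinetochore genes met the 6 h rule: DSCC1, STAG1, SPC25, CENPI and MAD1L1. All 5 were below -0.25 at both doses at 24 h. CENPU is also on that list, but the counts name it by its older symbol MLF1IP, so the list count missed it. MLF1IP is in the set. No gene on the lists of ubiquitin ligases, p53 targets or sterol synthesis met the 6 h rule, out of 43, 26 and 27. The ubiquitin list is partial: RAD18, a ubiquitin ligase on the repair list, is in the set. By role, 7 genes of the set belong to the ubiquitin system. The remaining genes among the 20 with the lowest effects had no list. SRBD1, named for an S1 RNA-binding domain, had 43.0 and 43.8 CPM in vehicle, 11.2, 10.6 and 11.8 CPM at 3 µM and 11.5, 10.3 and 10.9 CPM at 10 µM at 6 h, and by 24 h 47.7 and 45.4 CPM in vehicle, 47.5, 49.2 and 49.8 CPM at 3 µM and 48.4, 48.0 and 49.6 CPM at 10 µM. ZNF587B, a zinc-finger gene, had 11.7 and 12.1 CPM in vehicle, 3.23, 2.89 and 3.32 CPM at 3 µM and 2.92, 2.27 and 2.64 CPM at 10 µM at 6 h, and by 24 h 10.4 and 11.0 CPM in vehicle, 9.34, 9.27 and 9.50 CPM at 3 µM and 9.76, 9.89 and 10.1 CPM at 10 µM. At 24 h SRBD1 overlapped vehicle at 3 µM and lay above it at 10 µM, and ZNF587B was below it at both doses. FAM188A, a deubiquitinase also called MINDY3, had 23.3 and 24.1 CPM in vehicle, 6.85, 6.94 and 7.15 CPM at 3 µM and 7.17, 6.64 and 6.52 CPM at 10 µM at 6 h, and by 24 h 24.1 and 23.2 CPM in vehicle, 23.3, 22.4 and 23.7 CPM at 3 µM and 25.3, 24.2 and 24.8 CPM at 10 µM. N4BP2 had 77.7 and 90.1 CPM in vehicle, 27.0, 23.2 and 25.6 CPM at 3 µM and 27.8, 21.6 and 25.2 CPM at 10 µM at 6 h, and by 24 h 99.99 and 97.7 CPM in vehicle, 82.9, 85.6 and 84.2 CPM at 3 µM and 88.1, 86.1 and 86.1 CPM at 10 µM. The clone-named AC007390.5 had 74.7 and 76.0 CPM in vehicle, 25.1, 22.3 and 26.3 CPM at 3 µM and 18.3, 18.4 and 21.0 CPM at 10 µM at 6 h, and by 24 h 77.3 and 75.6 CPM in vehicle, 72.2, 71.8 and 70.2 CPM at 3 µM and 71.3, 68.9 and 71.5 CPM at 10 µM. FAM188A overlapped vehicle at 3 µM after 24 h and lay above it at 10 µM, and N4BP2 and AC007390.5 had all treated libraries below it.

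The doses were compared directly, a contrast the rule did not set although it used the same libraries. All 142 genes passed the filter on low counts. Of these 82 were lower at 10 µM than at 3 µM after 6 h and 3 were higher by edgeR's quasi-likelihood test, and 57 did not pass. A fit of the compared groups only gave 54 lower and 2 higher. The main fit took 1 estimate of the spread of a gene from all 6 groups. The median SD over the 142 genes was 4.71% of the mean at 3 µM and 6.58% at 10 µM after 6 h. It was 1.33 to 1.80% in the vehicle groups and the treated groups at 24 h. The part of this difference in the counts was not tested. Among all 22007 genes tested, 12.9% were lower and 12% higher, and among the 10011 at the vehicle minimum, from which the set was drawn, 23.2% and 14.4%. The shares in this set were 57.7% and 2.11%, beside 42.6% and 2.82% of the other 284 genes that met the 6 h rule. The difference between these shares was not tested. The median was -0.17 on the log2 scale, beside 0.01 over all tested genes. HIF1AN fell most from 3 to 10 µM, by 0.66 ± 0.05 (SE; adjusted p = 1.35e-07). ELMOD2, which acts on Arf-like GTPases, differed by -0.55 ± 0.05 (SE; adjusted p = 4.99e-07), and MTFMT, the mitochondrial methionyl-tRNA formyltransferase, by -0.55 ± 0.04 (SE; adjusted p = 3.40e-09). NMD3 differed by -0.54 ± 0.05 (SE; adjusted p = 1.75e-06). In these 4 genes all 3 libraries at 10 µM were below all 3 at 3 µM. The 3 that were higher at 10 µM were OFD1, by 0.25 ± 0.06 (SE; adjusted p = 0.0026), RAD18, by 0.24 ± 0.05 (SE; adjusted p = 3.52e-04), and USP9X, a deubiquitinase, by 0.22 ± 0.06 (SE; adjusted p = 0.021). USP9X did not pass in a fit of the compared groups only, nor without replicate 1 or 3 of 10 µM or replicate 2 or 3 of 3 µM (adjusted p from 0.060 to 0.089 by edgeR). PRKCI, the gene with the lowest effects, had a difference of -0.11 ± 0.04 (SE; adjusted p = 0.056) and did not pass. Without replicate 2 of 10 µM at 6 h, 66 genes were lower and 5 higher.

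**Figure D4:**
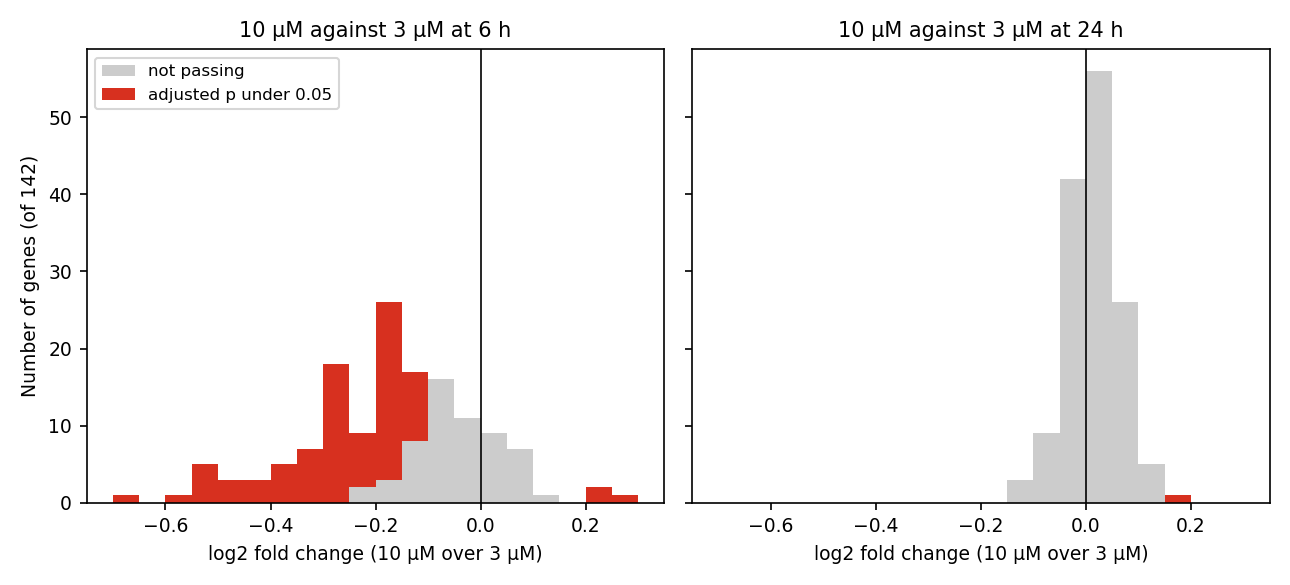
Histograms of the log2 fold change of 10 µM over 3 µM for the 142 genes at 6 h (left) and at 24 h (right), in bins of 0.05; red bars are genes with adjusted p under 0.05 by edgeR. The 6 h values reach from -0.66 to 0.25 with a median of -0.17, and the 24 h values, which the rule limits, lie close to 0.

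At 24 h the step between the doses was small: 0 of the 142 genes were lower at 10 µM and 1 was higher, GK5 of the glycerol kinase family, by 0.20 ± 0.06 (SE; adjusted p = 0.043). Among all genes 3.85% were lower and 2.49% higher, and among the 10011 at the vehicle minimum 7.10% and 4.06%. At an unadjusted p under 0.05 the same edgeR test gave 3 lower and 10 higher, a limit at which all genes were not counted. After adjustment DESeq2 gave 0 lower and 2 higher, with 1038 and 593 among all genes. Limma-voom gave 0 lower and 1 higher, with 830 and 568 among all. A fit of the 24 h treated groups alone gave 5 lower and 21 higher, with 1877 and 1876 among all. GK5 did not pass once any 1 of the 6 treated libraries at 24 h was left out. The rule allowed the doses to differ by 0.5 at most here, so the small step and the few calls partly follow from it. The shares of all genes are under no such limit.

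Vehicle cultures were compared between 24 and 6 h to see how the genes moved without compound. The rule used the vehicle means as denominators and, at 6 h, as a minimum, so this comparison is not independent of the choice of genes. Of the 142, 21 rose and 5 fell by edgeR's test, beside 11.0% and 9.55% of all genes, and the median was 0.01. These are 14.8% and 3.52% of the set, and among the 10011 genes at the vehicle minimum 16.8% rose and 17.3% fell. A fit of the vehicle groups only gave 32 genes that rose and 22 that fell. PLD1, a phospholipase D, rose by 0.52 ± 0.05 (SE; adjusted p = 5.71e-08), from 21.3 and 22.2 CPM to 31.5 and 31.3 CPM. At 24 h its treated libraries had 30.3, 30.5 and 30.7 CPM at 3 µM and 32.5, 30.3 and 31.0 CPM at 10 µM. The rule fixes this likeness to the 24 h vehicle. KIF13B, a kinesin, rose by 0.31 ± 0.05 (SE; adjusted p = 1.62e-04), DOCK8, an exchange factor for small GTPases, by 0.30 ± 0.06 (SE; adjusted p = 5.32e-04), the unconventional myosin MYO10 by 0.29 ± 0.05 (SE; adjusted p = 3.74e-05), and CTPS2, a CTP synthase, by 0.24 ± 0.04 (SE; adjusted p = 1.90e-04). DIMT1 changed by -0.22 ± 0.04 (SE; adjusted p = 9.58e-05), PWP1, another ribosome biogenesis gene, by -0.18 ± 0.04 (SE; adjusted p = 0.0020), and the lysosomal channel TPCN2 by -0.17 ± 0.06 (SE; adjusted p = 0.032). TMEM199, an assembly factor of the proton pump, changed by -0.16 ± 0.05 (SE; adjusted p = 0.027) and DESI1, a SUMO isopeptidase, by -0.13 ± 0.05 (SE; adjusted p = 0.048). Each vehicle group has 2 libraries. Leaving out any 1 of the 4 in turn left 2 genes that fell and 7 to 15 that rose. TPCN2, TMEM199 and DESI1 did not pass without any 1 of them, and DESI1 not without scaling factors either (adjusted p from 0.064 to 0.23 by edgeR). POLR2A, USP9X and INPPL1, a lipid phosphatase, took the most reads of the set, a quantity that grows with transcript length, and did not pass. Their values were 0.16 ± 0.08 (SE; adjusted p = 0.20) for POLR2A, 0.22 ± 0.08 (SE; adjusted p = 0.058) for USP9X and -0.04 ± 0.05 (SE; adjusted p = 0.71) for INPPL1.

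On the 16 lists, the direct comparison of the doses at 6 h passed in these numbers of genes. Of 74 ribosome biogenesis genes 25 were lower and 3 higher at 10 µM. Of 51 replication genes 30 were lower and 2 higher, and of 54 repair genes 14 and 5. Of 65 splicing and RNA processing genes 26 were lower and 7 higher, and of 63 transcription genes 28 and 7. Cell division genes were lower in 29 and higher in 3 of 47 for cohesion and the kinetochore, and in 19 and 0 of 41 for mitosis and the centrosome. For mitochondrial gene expression the numbers were 28 and 4 of 72, for tRNA and RNA polymerase III 14 and 7 of 59, for transport and pores 17 and 4 of 46, and for the peroxisome 7 and 0 of 18. Polarity genes had 6 and 4 of 27, and ubiquitin ligases 14 and 7 of 43. More genes were higher than lower on 3 lists: the p53 targets with 2 lower and 16 higher of 26, receptors and growth factor signalling with 5 and 9 of 46, and sterol and lipid synthesis with 0 and 3 of 27. Of all 10011 genes at the vehicle minimum 23.2% were lower and 14.4% higher. In vehicle, 35 of the 74 ribosome biogenesis genes fell from 6 to 24 h, DIMT1 among them, beside 17.3% of the 10011 genes.

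Gene structure was read from GENCODE 29 on GRCh38, which differs from the hg19 build of the counts, so no positions are mixed. It matched 139 of the 142 genes, 8 of them by an older symbol. The median gene spanned 51.3 kb and had up to 16 exons in a transcript, beside 69.7 kb and 18 exons for 280 of the other 284 genes lower at 6 h and 33.5 kb and 10 exons for 9782 genes at the vehicle minimum. Of the 139, 29.5% spanned at least 100 kb and 5.04% had under 5 exons, beside 19.2% and 15.4% of all. An annotated transcript of the nonsense-mediated decay class was present in 63.3% of the set, 48.6% of the other genes lower at 6 h and 43.8% of all, and a retained-intron transcript in 73.4%, 62.9% and 59.3%. The shares can depend on the number of annotated transcripts as well as on structure, and this was not tested. The median number of transcripts was 9 in the set, 8 in the other genes lower at 6 h and 8 in all.

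Split into quartiles by exon number, 1.35, 1.72, 4.58 and 9.48% of genes met the 6 h rule, from the fewest to the most exons. The set held 12, 14, 46 and 67 genes in these quartiles. Of the genes that met the 6 h rule, 36.4, 33.3, 41.1 and 28.9% were in the window at 24 h, so the count was larger with more exons and the share back at vehicle was not. By span, 1.23, 2.99, 5.93 and 6.99% met the 6 h rule and 46.7, 35.6, 34.5 and 28.7% of these were in the window at 24 h. Within the set, the mean 6 h effect had a Spearman rho of 0.08 with exon number and -0.01 with span over 139 genes, and -0.09 with the vehicle level over 142. These are across genes of the same libraries and carry no test.

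**Figure D5:**
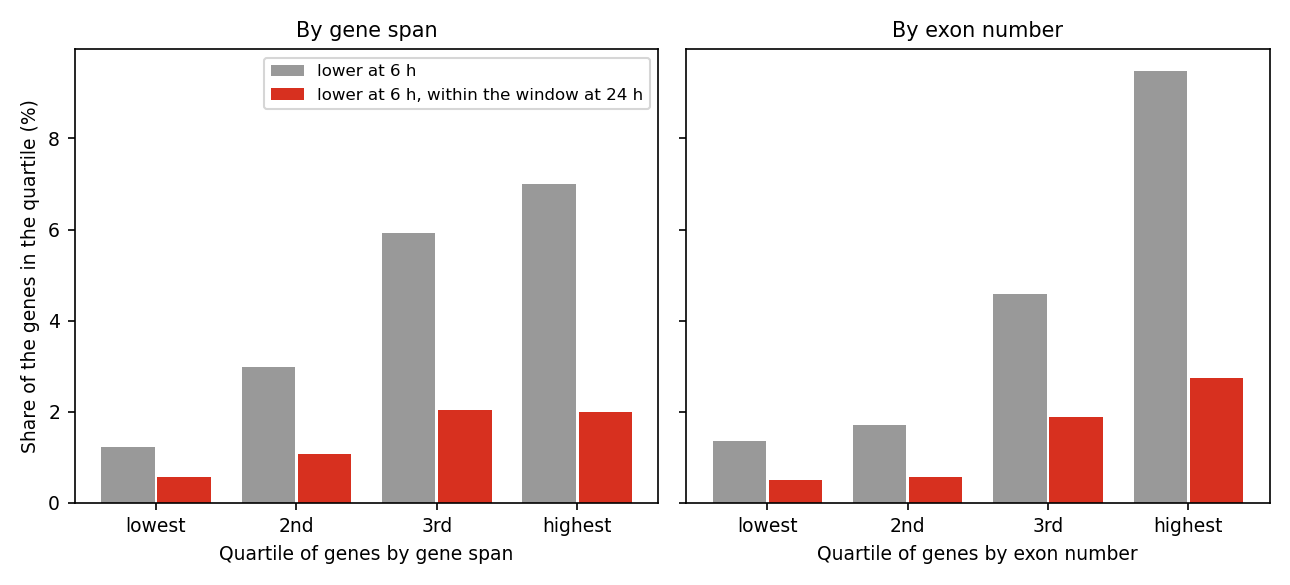
Bars give the percentage of genes at the vehicle minimum that were lower at 6 h at both doses (grey) and that were also within the window at 24 h (red), in quartiles of gene span (left) and exon number (right). The grey bars go from 1.35 to 9.48% over the quartiles of exon number and from 1.23 to 6.99% over those of span.

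Of the matched genes 136 are protein coding and 3 are processed pseudogenes, whose reads cannot be told apart from those of their parent genes with certainty. RALGAPA1P had effects of -1.27 and -1.38 at 6 h and its parent RALGAPA1, also in the set, -1.09 and -1.07. RBMS1P1 had -1.0 and -1.37 and its parent RBMS1 -0.92 and -1.22. DYNC1I2P1 had -1.03 and -1.30 and DYNC1I2 -0.99 and -1.23. Each pseudogene had effects near those of its parent, and RBMS1 and DYNC1I2 missed the set only by their 3 µM values. By the annotation 87 of the 139 overlap another gene on the opposite strand and 52 one on the same strand, and the strand setting of the counting is not given in the sources used here.

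The share of assigned read pairs that lay outside annotated exons was higher in treated than in vehicle libraries at both times, with no overlap. It was 4.57 ± 0.267% in vehicle at 6 h (SD, n = 2), 5.91 ± 0.381% at 3 µM and 6.65 ± 0.377% at 10 µM (SD, n = 3 each). The 24 h values were 4.43 ± 0.238% (n = 2), 5.80 ± 0.171% and 5.93 ± 0.203% (n = 3 each). The share stayed above vehicle at 24 h, when the 142 genes were back within the window. The part of this share in the levels of the genes was not tested.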

How the data were processed

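The data are RNA counts of 16 CAL51 libraries. Per the labels' protocols, poly-A RNA was made into strand-specific libraries and sequenced as pairs of 100 bases. Each deposited file lists, for 1 library and by gene symbol, the authors' raw read pair counts, made with STAR and HTSeq on hg19 (GRCh37), per the submitters' processing notes. Versions, strand setting and gene annotation were not given in the sources used here. The counter's closing entries, 16.9 to 20.2% of pairs, were left out. At 104609173 pairs or more a library, libraries of a group differed by more than counting error. Their mean chi-square per gene was 2.51 to 19.1, where counting error alone gives about 1. At the low end of this range counting error is not small beside the spread. The p-values measure the spread of the libraries, counting error included. The part of counting error in the spread of the chosen genes was not tested.

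CPM, effects and the set were computed on plain library sums. Tests used edgeR 4.0.16 in R 4.3.3: filterByExpr (minimum count 10, minimum total 15, 22007 genes kept), TMM factors, 6 group means fitted to all libraries, robust quasi-likelihood F tests, two-sided, with Benjamini-Hochberg adjustment over all 22007 genes; adjusted p under 0.05 was called. Standard errors (SE) are the absolute log2 fold change divided by the square root of F. The comparisons tested were 10 against 3 µM at each time and vehicle at 24 h against 6 h. The script was tested on simulated data with 200 changed genes. Of planted 1.5-fold changes it recovered 70.1% (doses at 6 h), 71.6% (doses at 24 h) and 56.7% (vehicle). Of the genes called, 6.15%, 5.17% and 5.42% were false. Changes smaller than 1.5-fold were not planted. Alternatives were DESeq2 1.42.0, limma-voom (limma 3.58.1), RLE and no scaling, other filters, other limits of the rule, a fit of the compared groups only, a replicate block, and the omission of single libraries.

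The members, the 16 gene lists and the roles were chosen with earlier results of these data known. Genes are named by rule: the 20 lowest mean 6 h effects, listed members, the 5 largest called dose differences at 6 h, the 5 largest called vehicle changes each way, the 3 highest vehicle levels, and 2 genes on each side of a limit. Others named, such as the genes higher at 10 µM, GK5, role examples and parents of pseudogenes, were picked after their values were seen. A few genes chosen by these criteria are left out of the text.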

Additional observations from a re-analysis of the deposited data

Results flagged for a closer look

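Read pairs outside annotated exons, which enter no comparison of genes, took a larger share in treated than in vehicle libraries, by 1.71 percentage points at 6 h and 1.44 points at 24 h. No explanation was tested.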

How the results depend on the processing

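The set depended on its limits: 288 genes with a 6 h limit of -0.8, 69 with -1.2, 78 with a 24 h window of 0.15 and 297 with 0.5. With TMM-scaled CPM it had 115 genes and with edgeR's fitted fold changes 114, and 95 of the 142 were shared in each case. Leaving out each library in turn gave 132 to 158 genes. A fit of the compared groups only gave 54 genes lower at 10 µM at 6 h, with 1843 lower and 1577 higher among all genes. At 24 h it gave 5 lower and 21 higher, with 1877 and 1876 among all, and for vehicle it gave 22 lower and 32 higher. For the genes higher at 10 µM at 24 h, DESeq2 gave 2 and no filter 3. For the genes lower in vehicle at 24 h, DESeq2 gave 8, limma-voom 8 and no filter 11. The cause of these shifts was not tested.

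Leaving out 1 library gave, at 6 h, 63 to 85 genes lower and 2 to 5 higher at 10 µM, with 2061 to 2851 and 1927 to 2640 among all genes. At 24 h it gave 0 to 0 lower and 0 to 0 higher, with 437 to 563 and 217 to 295 among all. In vehicle it gave 2 to 2 lower and 7 to 15 higher, with 1047 to 1605 and 1425 to 1974 among all, and the lone vehicle library left was assumed to vary like the other groups. For named genes, 1907 recomputed values kept direction and side of the threshold, 60 newly passed and 73 no longer passed, and no called value changed sign.

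Over all tested genes, deviations of same-numbered libraries correlated at -0.02 to 0.08 and those of differently numbered ones at -0.10 to 0.10. The numbers thus showed no pairing there. Replicate 2 had the lowest value for most of the 142 genes in both treated groups at 6 h. An effect shared by these libraries within the set was not tested. With replicate number as a block, 0 genes were higher at 10 µM at 24 h, 82 were lower and 3 higher at 6 h, and in vehicle 5 were lower and 22 higher. Libraries of a group differed by a mean chi-square per gene of 2.51 to 19.1, where counting error alone gives about 1.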
